A study of Rattus norvegicus with 2 samples.

Results

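The genes described here make the proteins that package, splice and unwind RNA: the heterogeneous nuclear ribonucleoproteins (hnRNPs), the serine- and arginine-rich splicing factors (SR proteins), the core proteins of the spliceosomal snRNPs, the SF3 complexes, the Prpf proteins, and the DEAD-box (Ddx) and DEAH-box (Dhx) helicases. They were chosen by symbol, as the probe sets whose single annotated rat gene begins with Hnrnp, Srsf, Snrp, Sf3a, Sf3b, Prpf, or with Ddx or Dhx and a number. This rule took 109 probe sets of 83 genes, out of 10411 genes named alone by 12783 of the 15923 probe sets on the array. The class of Ddx genes held 30 probe sets, Hnrnp 25, Prpf 13, Srsf 12, Sf3a and Sf3b 11, Dhx 10 and Snrp 8.

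The cells were A7r5, a line established from rat embryonic vascular smooth muscle. One pool of cells was infected with an adenovirus that carried the human cDNA of GLUT1, the glucose transporter encoded by SLC2A1, and the control pool was infected with an empty adenovirus. Both pools therefore carried virus, at a multiplicity of infection of 10 for 72 hours, and both were kept in 5.5 mM glucose. RNA of 3 isolation days was joined into 1 pool per condition, and each pool was read on 1 array, so the series holds 2 arrays and no difference below has a replicate check, a p-value or a standard error. In bulk RNA, fewer cells with a transcript and less transcript per cell cannot be told apart. The array reads the amount of an mRNA where its probes bind, not how exons are joined.

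Most introns are removed by the spliceosome, which is assembled on each intron from snRNPs, particles of a small nuclear RNA and proteins. SR proteins bind exons and usually help nearby splice sites to be used, while hnRNPs coat the nascent transcript and often, though not always, act against the use of a site. DEAD- and DEAH-box helicases use ATP to open RNA duplexes or strip proteins from RNA, in splicing but also in ribosome assembly, export, translation and decay. In smooth muscle, alternative splicing sets isoforms of contractile proteins such as tropomyosin and myosin heavy chain.

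The deposited values are linear intensities, and both columns had already been brought to nearly the same distribution. A floor of 175, the 25th percentile over the pair of arrays, replaced every lower intensity. A probe set counted as measured when its mean log2 intensity over both arrays reached 8.99, the median of all probe sets, which is an intensity of 507. The log2 ratio is GLUT1 over control. As a yardstick, the local spread is the scaled median absolute deviation of the ratio among the 500 measured probe sets of closest brightness. It holds array noise and real differences together. Between the arrays the measured log2 intensities had a Pearson correlation of 0.993 across probe sets, which are not independent replicates. The rat probe set of Slc2a1 was read at 3121 in the GLUT1 pool and 2902 in the control pool, a log2 ratio of 0.11 and 0.945 local spreads. The transgene is human, and whether rat probes bind it was not tested, so this value checks no label. Of 12 smooth muscle markers 10 were measured, among them Acta2 at 16687 in the GLUT1 pool and 16303 in the control pool, while Myh11, the smooth muscle myosin heavy chain, was dim at 228 in the GLUT1 pool and 227 in the control pool. The summed intensity of the smooth muscle markers was 71758 in the GLUT1 pool and 73698 in the control pool. Markers of other cell types were measured for 1 of 4 endothelial, 2 of 6 leukocyte, 1 of 4 epithelial and 1 of 6 skeletal muscle genes. The ratio of the 5' to the 3' probe set, a sign of RNA integrity, was 0.831 in the GLUT1 pool and 0.794 in the control pool for beta-actin, and 0.805 in the GLUT1 pool and 0.859 in the control pool for GAPDH.

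Of the 109 probe sets, 97 were measured, and they cover 80 of the 83 genes. None differed by 2-fold in either direction, where the share over all 6916 measured probe sets with a single gene was 0.0145% higher and 0.0% lower. At a log2 ratio of 0.25 or more either way, which is 1.19-fold, 1 probe set was higher and 4 were lower in the GLUT1 pool. That is 5.15% of the 97, beside 7.81% of all measured probe sets (4.24% higher and 3.57% lower). Lying at least 2 local spreads from the median of like brightness were 7 of the 97, or 7.22%, beside 5.75% of all. The first share lies below that of the array as a whole and the second above it, each by a few probe sets. Their median log2 ratio was -0.02, with 57 below and 40 above 0, beside a median of 0.0014 over all measured probe sets.

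**Figure D1:**
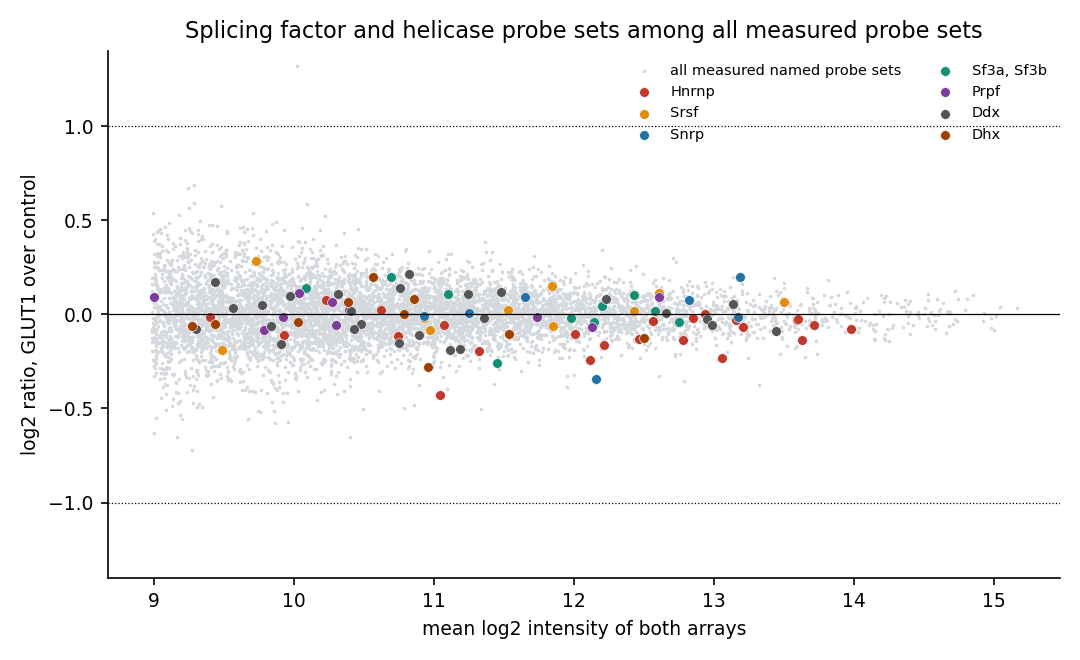
Log2 ratio, GLUT1 over control, against the mean log2 intensity of both arrays for each measured probe set. Coloured points are the 97 measured probe sets by class, grey points the 6916 measured probe sets with a single gene, and dotted lines mark 2-fold, which no coloured point reaches.

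Brightness differs between probe sets for reasons other than the amount of mRNA, so the ranges by class describe signal only. The lowest, median and highest intensities of the measured Hnrnp probe sets were 674, 5689.5 and 15697 in the GLUT1 pool and 682, 6027 and 16615 in the control pool. For Srsf they were 672, 3300 and 11833 in the GLUT1 pool and 767, 3211.5 and 11309 in the control pool. For Snrp they were 1941, 4061 and 9976 in the GLUT1 pool and 1955, 5154 and 9271 in the control pool. The Snrp medians fall on the same probe set, that of Snrpd3. For Sf3a and Sf3b they were 1140, 4232.5 and 6796 in the GLUT1 pool and 1037, 4329 and 6995 in the control pool. For Prpf they were 529, 1250.5 and 6437 in the GLUT1 pool and 496, 1249.5 and 6044 in the control pool. For the helicases the medians were 1822 in the GLUT1 pool and 1754 in the control pool for Ddx, and 1695.5 in the GLUT1 pool and 1593 in the control pool for Dhx. The highest Ddx signal was 10793 in the GLUT1 pool and 11481 in the control pool, and the highest Dhx signal 5541 in the GLUT1 pool and 6044 in the control pool. The 12 probe sets below the filter were the only ones of Ddx28, Ddx31 and Snrpn and further ones of Ddx42, Ddx54, Hnrnpu, Prpf18, Prpf3, Sf3a1 and Srsf10, and those of Ddx42 and Prpf18 were at the floor on both arrays.

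The classes did not all sit at the same place. Hnrnp probe sets were lower in the GLUT1 pool in 22 of 24 cases, with a median log2 ratio of -0.07 (quartiles -0.13 and -0.03). Over all measured probe sets 49.3% were lower, and among those between the brightness quartiles of the Hnrnp class 48.7% of 2228 were. Of the other classes all but Dhx lay around 0. The median was 0.02 over 10 Srsf, 0.0072 over 7 Snrp, 0.03 over 10 Sf3a and Sf3b, 0.0055 over 10 Prpf and -0.0074 over 26 Ddx probe sets. Dhx lay between these and Hnrnp, at a median of -0.05 with 6 of 10 probe sets lower in the GLUT1 pool. Without Hnrnp, the 73 remaining probe sets had 38 above and 35 below 0 and a median of 0.0058. The lean of the Hnrnp class was picked out after the values were seen and with 1 array per group it has no test.

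Some markers of smooth muscle and of other cell types were also lower in the GLUT1 pool, by more than the Hnrnp median. Of the measured smooth muscle markers, Actg2 had a log2 ratio of -0.21, Tpm1 -0.17, Cald1 -0.13, Myl9 -0.10 and Des -0.03. The others were higher in the GLUT1 pool, with Acta2 and Tpm2 at 0.03, Tagln at 0.04, Cnn1 at 0.08 and Smtn at 0.19. The summed intensity of 6 leukocyte markers was 3492 in the GLUT1 pool and 3879 in the control pool, and that of 4 endothelial markers 783 in the GLUT1 pool and 901 in the control pool. Among the leukocyte markers C1qb was read at 1014 in the GLUT1 pool and 1352 in the control pool, a log2 ratio of -0.41, and Cd14 at 1398 in the GLUT1 pool and 1235 in the control pool, a log2 ratio of 0.18. Cd3e, Cd68 and Lyz2, below the brightness filter, had -0.39, -0.37 and -0.15. Esam, the only measured endothelial marker, was dim at 479 in the GLUT1 pool and 584 in the control pool, a log2 ratio of -0.28. The defining markers Ptprc, of leukocytes, and Pecam1 and Kdr, of endothelium, were at the floor on both arrays. The sum over 4 epithelial markers, nearly all of it Krt8, was 6734 in the GLUT1 pool and 6369 in the control pool, and that over 6 skeletal muscle markers 3153 in the GLUT1 pool and 3154 in the control pool. Of the skeletal muscle markers Acta1 had -0.06 and, below the brightness filter, Ckm had 0.12 and Myog 0.43, while the others were at the floor. The part of other cell types in the Hnrnp ratios was not tested.

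**Figure D2:**
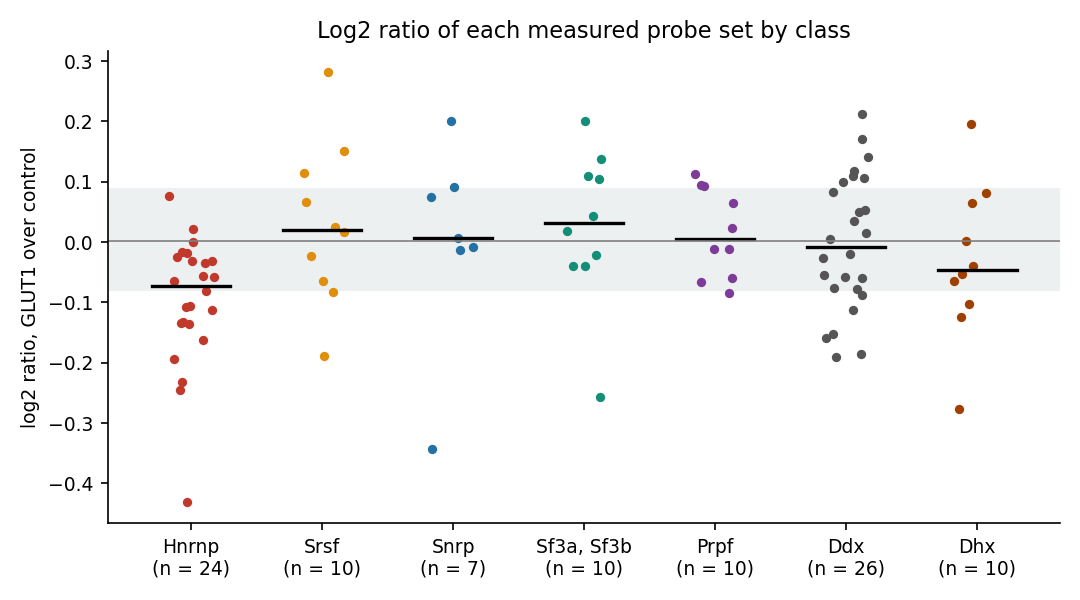
Log2 ratio, GLUT1 over control, of each measured probe set by class, with black bars at the class medians. The grey band spans the quartiles of all measured probe sets, -0.08 and 0.09, and the grey line their median. The Hnrnp points lie mostly below 0, and the other classes on both sides of it.

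Promoter sequences are shown for the 4 Hnrnp genes that hold the single probe sets with the largest absolute ratios, all lower in the GLUT1 pool. Hnrnpa1 entered by a dimmer probe set at -0.19, while its brightest had -0.03. By the mean over probe sets Hnrnpf, Hnrnpd and Hnrnpu stood lower than Hnrnpa1. Snrpd3 and Srsf6 are shown as well, which outside that class hold the probe sets with the lowest and the highest ratio. For Srsf6 that is the dimmer of its probe sets, and by the mean over probe sets Ddx56 and Snrpd2 stood higher. The sequences give the 250 bases before the annotated start in RefSeq (build GRCr8), 5' to 3' on the strand of the gene. Capitals mark 5 motifs searched on both strands: the CCAAT motif, the GC box with the letters GGGCGG, the E-box with the letters CACGTG, which MYC and other factors bind, the ETS core with the letters CGGAAG, and the TATA box with the letters TATAAA.
Hnrnpa2b1, chr4:81875887-81876136, minus strand: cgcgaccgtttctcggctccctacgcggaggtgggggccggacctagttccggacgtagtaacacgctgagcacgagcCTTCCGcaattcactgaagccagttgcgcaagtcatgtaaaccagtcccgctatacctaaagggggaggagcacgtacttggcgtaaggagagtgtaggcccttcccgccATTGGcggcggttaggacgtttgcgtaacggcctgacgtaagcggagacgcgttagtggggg
Hnrnpm, chr7:15178872-15179121, minus strand: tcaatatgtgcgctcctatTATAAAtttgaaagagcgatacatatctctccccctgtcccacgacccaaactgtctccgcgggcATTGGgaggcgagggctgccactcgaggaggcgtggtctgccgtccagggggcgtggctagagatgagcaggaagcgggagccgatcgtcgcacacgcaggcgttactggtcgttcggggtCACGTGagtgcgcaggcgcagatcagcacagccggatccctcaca
Hnrnpa1, chr7:136253868-136254117, plus strand: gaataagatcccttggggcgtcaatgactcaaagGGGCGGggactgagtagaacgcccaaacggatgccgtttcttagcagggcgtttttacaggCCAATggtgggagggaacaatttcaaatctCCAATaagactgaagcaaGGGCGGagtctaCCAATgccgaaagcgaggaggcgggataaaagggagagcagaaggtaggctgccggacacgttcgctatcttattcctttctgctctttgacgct
Hnrnpr, chr5:153826269-153826518, plus strand: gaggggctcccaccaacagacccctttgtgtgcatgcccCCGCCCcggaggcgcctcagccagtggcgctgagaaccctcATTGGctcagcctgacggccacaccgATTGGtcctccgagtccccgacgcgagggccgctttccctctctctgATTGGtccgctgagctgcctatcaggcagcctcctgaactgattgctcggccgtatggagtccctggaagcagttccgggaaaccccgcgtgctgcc
Snrpd3, chr20:13144921-13145170, minus strand: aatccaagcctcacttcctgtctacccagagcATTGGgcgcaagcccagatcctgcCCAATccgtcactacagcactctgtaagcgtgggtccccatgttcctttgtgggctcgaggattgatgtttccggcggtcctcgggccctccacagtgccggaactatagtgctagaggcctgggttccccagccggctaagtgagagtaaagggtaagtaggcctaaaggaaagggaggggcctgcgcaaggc
Srsf6, chr3:172008822-172009071, plus strand: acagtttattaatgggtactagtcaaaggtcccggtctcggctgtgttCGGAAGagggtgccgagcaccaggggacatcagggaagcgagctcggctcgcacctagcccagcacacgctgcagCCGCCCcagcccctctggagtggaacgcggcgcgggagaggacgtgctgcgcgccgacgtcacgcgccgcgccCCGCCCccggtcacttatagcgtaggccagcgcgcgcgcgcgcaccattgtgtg

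The CCAAT motif stood in 5 of these 6 windows. In Hnrnpa1 and in Hnrnpr it occurred 3 times each, and in Snrpd3 it occurred 2 times. Hnrnpa2b1 and Hnrnpm each held it 1 time, and Srsf6 did not hold it. Across the measured Hnrnp genes it was found in 12 of 16 promoters, beside 41 of 76 promoters, or 53.9%, over all matched genes of these families, 36.5% of 5213 promoters of genes measured on the arrays and 34.3% of all 27457 promoters. The ETS core was found in 4 of 16 Hnrnp promoters but in 41 of the 76, where 31.5% of the measured genes and 14.7% of all promoters hold it. CACGTG was found in 3 of the 16, among them Hnrnpm, beside 9.17% of measured genes and 5.79% of all promoters. The GC box was in 13 of the 16, beside 63.3% of measured genes and 32.4% of all promoters. TATAAA was in 3 of the 16, beside 6.08% of measured genes and 13.1% of all promoters. These are matches of letters in a window and show no binding.

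Some of these genes start close to a gene that runs the other way. Of the 76, 17 had the start of an opposite gene within 1000 bases upstream, or 22.4%, beside 17.6% of measured genes. Only 5 of those neighbours were themselves measured. Snrpd3 starts 135 bases from Gucd1, which was read at 1055 in the GLUT1 pool and 943 in the control pool, a log2 ratio of 0.16 where Snrpd3 had -0.34. Hnrnpa2b1 starts 793 bases from Cbx3, a gene of heterochromatin protein 1 for which no measured probe set listed it alone.

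Hnrnpa2b1, which encodes the A2 and B1 proteins that bind pre-mRNA and take part in RNA sorting, stood lowest in its class. Probe set 1398883_at read 7856 in the GLUT1 pool and 9235 in the control pool, a log2 ratio of -0.23 and -2.80 local spreads. Probe set 1373540_at read 1815 in the GLUT1 pool and 2448 in the control pool, a log2 ratio of -0.43 and -3.71 local spreads. Both probe sets of the gene were thus lower in the GLUT1 pool, at 0.851 and 0.742 times the control intensity, and the mean of both log2 ratios was -0.33.

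Hnrnpm, a regulator of alternative exons that binds GU-rich RNA, had 1 probe set, read at 4068 in the GLUT1 pool and 4824 in the control pool, a log2 ratio of -0.24 and -2.63 local spreads. Hnrnpr, which binds RNA in the nucleus and in axons, was read at 4484 in the GLUT1 pool and 5020 in the control pool, a log2 ratio of -0.16. Each of these genes is lower in the GLUT1 pool and each rests on a single probe set.

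Hnrnpa1, the best studied hnRNP and an antagonist of SR proteins at many splice sites, had 3 probe sets, all measured and all lower in the GLUT1 pool. The brightest, 1387872_at, read 12191 in the GLUT1 pool and 12468 in the control pool, a log2 ratio of -0.03. The others read 2392 in the GLUT1 pool and 2740 in the control pool, a log2 ratio of -0.19, and 1653 in the GLUT1 pool and 1789 in the control pool, a log2 ratio of -0.11. The size thus differed between probe sets of the same gene, and the mean over the 3 was -0.11. Hnrnp genes have many near-identical copies and processed pseudogenes in mammals, and whether these probe sets bind such copies was not tested.

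Hnrnpu, a large nuclear scaffold protein, was lower on both measured probe sets. Probe set 1370170_at read 12088 in the GLUT1 pool and 13278 in the control pool, a log2 ratio of -0.13. Probe set 1370171_at read 3971 in the GLUT1 pool and 4279 in the control pool, a log2 ratio of -0.11. Relative to probe sets of like brightness these were -1.76 and -1.21 local spreads. Another probe set, below the brightness filter at 469 in the GLUT1 pool and 455 in the control pool, had a log2 ratio of 0.05.

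Hnrnpa3 was the exception within the class, with 4 measured probe sets that did not point one way. The brightest read 15697 in the GLUT1 pool and 16615 in the control pool, a log2 ratio of -0.08, and the next 7352 in the GLUT1 pool and 7450 in the control pool, a log2 ratio of -0.02. The dimmer probe sets gave 0.02, from 1589 in the GLUT1 pool and 1566 in the control pool, and 0.08, from 1233 in the GLUT1 pool and 1170 in the control pool. They are the only 2 measured Hnrnp probe sets above 0, and the mean over the gene was 0.00025.

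The other Hnrnp genes were all lower in the GLUT1 pool by small amounts. Hnrnpf, which binds G runs, was read at 6705 in the GLUT1 pool and 7376 in the control pool, a log2 ratio of -0.14. Hnrnpd, or AUF1, which binds AU-rich elements and sets mRNA decay, was read at 5395 in the GLUT1 pool and 5922 in the control pool, a log2 ratio of -0.13. Hnrnph3 followed at -0.11 and Hnrnph1, a relative of Hnrnpf, at -0.07. Hnrnpab was read at 13197 in the GLUT1 pool and 13730 in the control pool, a log2 ratio of -0.06, and Hnrnpul1 also had -0.06. Closest to 0 were Hnrnpa0 at -0.03, Hnrnpdl at -0.03 and -0.02 on its 2 probe sets, Hnrnpl, which binds CA repeats, at -0.03, and Hnrnpc, which binds U tracts, at -0.00068 with 7831 in the GLUT1 pool and 7842 in the control pool. Represented by its brightest probe set, each of the 16 Hnrnp genes was below 0, beside 47.8% of the 6114 measured genes. Under quantile normalization this held for 14 of the 16, since Hnrnpa1 then stood at 0.0 and Hnrnpc at 0.01. None but Hnrnpa2b1 and Hnrnpm lay 2 local spreads or more from the median of like brightness.

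**Figure D3:**
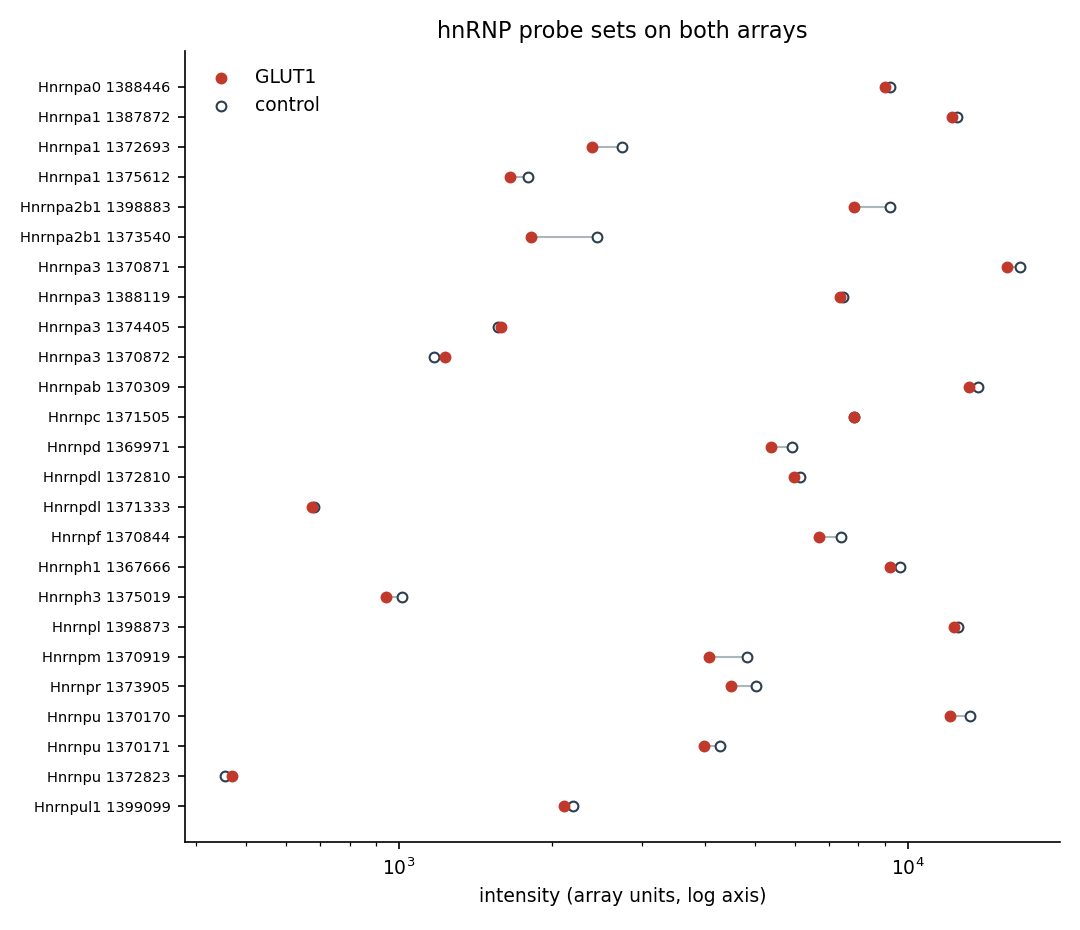
Intensity of each of the 25 Hnrnp probe sets, labelled by gene and probe set number, in the GLUT1 pool (filled red) and in the control pool (open), on a log axis in array units. The filled point lies left of the open one in most rows, with the widest gaps for Hnrnpa2b1 and Hnrnpm. Hnrnpa3 and the dimmest Hnrnpu probe set hold the rows where it lies to the right.

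SR protein genes lay on both sides of 0, with 6 of 10 measured probe sets higher and 4 lower in the GLUT1 pool. Srsf6, an SR protein that binds exonic enhancers, was higher on both probe sets: 6480 in the GLUT1 pool and 5993 in the control pool, a log2 ratio of 0.11, and 935 in the GLUT1 pool and 770 in the control pool, a log2 ratio of 0.28. The second is the only measured probe set of these families higher by 0.25 or more, at 1.76 local spreads. Srsf2, or SC35, an SR protein of nuclear speckles, was also higher on both of its probe sets. The brighter read 11833 in the GLUT1 pool and 11309 in the control pool, a log2 ratio of 0.07. Its second read 3866 in the GLUT1 pool and 3485 in the control pool, a log2 ratio of 0.15.

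Srsf10, a splicing repressor when dephosphorylated, was lower on its only measured probe set, read at 672 in the GLUT1 pool and 767 in the control pool, a log2 ratio of -0.19 and -1.07 local spreads. Its other 2 probe sets were at the floor on both arrays. Srsf1, the founding SR protein, gave 0.02 on the brighter probe set, from 5550 in the GLUT1 pool and 5493 in the control pool, and -0.08 on the second, from 1951 in the GLUT1 pool and 2069 in the control pool. Srsf5 had a log2 ratio of -0.06, Srsf11 of -0.02 and Srsf9 of 0.03. No SR protein gene reached 2 local spreads.

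The Snrp genes encode proteins of the spliceosomal snRNPs, and Snrpb, Snrpd2, Snrpd3 and Snrpe help to build the Sm ring around the small nuclear RNAs. Snrpd3 was read at 4061 in the GLUT1 pool and 5154 in the control pool, a log2 ratio of -0.34 and -3.71 local spreads. Snrpd2 was read at 9976 in the GLUT1 pool and 8690 in the control pool, a log2 ratio of 0.20 and 2.60 local spreads. The ring partners thus stood on opposite sides, each on 1 probe set. Snrpb was read at 7436 in the GLUT1 pool and 7071 in the control pool, a log2 ratio of 0.07, and Snrpe at 9176 in the GLUT1 pool and 9271 in the control pool, a log2 ratio of -0.01.

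Proteins particular to the U1 and U2 particles differed little. Snrpb2, of the U2 particle, had a log2 ratio of 0.09, from 3322 in the GLUT1 pool and 3121 in the control pool. Snrpa, of the U1 particle, had 0.0072 and Snrpa1, the partner of Snrpb2, -0.0090. Snrpn, the imprinted Sm protein gene known from neurons, was below the filter on its single-gene probe set, at 296 in the GLUT1 pool and 288 in the control pool.

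The SF3 complexes are parts of the U2 particle and bind around the branch site. Sf3b1, which clamps the branch site, was lower on both probe sets but unequally. The brighter read 4451 in the GLUT1 pool and 4578 in the control pool, a log2 ratio of -0.04, and the second 2555 in the GLUT1 pool and 3056 in the control pool, a log2 ratio of -0.26 and -2.36 local spreads. Its neighbour in the complex Sf3b2 gave opposite signs, -0.04 on the brighter probe set, from 6796 in the GLUT1 pool and 6995 in the control pool, and 0.20 on the second, from 1777 in the GLUT1 pool and 1548 in the control pool.

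The other SF3 subunits were near 0 or slightly higher in the GLUT1 pool. Sf3a1 was read at 1140 in the GLUT1 pool and 1037 in the control pool, a log2 ratio of 0.14, with -0.14 on a probe set below the filter. Sf3a3 had a log2 ratio of 0.11, from 2279 in the GLUT1 pool and 2115 in the control pool, and Sf3b5 of 0.10, from 5714 in the GLUT1 pool and 5318 in the control pool. Sf3b6, the small subunit at the branch adenosine, had 0.04, Sf3b4 had 0.02, from 6165 in the GLUT1 pool and 6092 in the control pool, and Sf3b3 had -0.02. Only the second Sf3b1 probe set lay beyond 2 local spreads.

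The Prpf genes had the narrowest range, from -0.08 to 0.11 over 10 genes with 1 measured probe set each. Prpf8, the scaffold of the catalytic centre, was read at 6437 in the GLUT1 pool and 6044 in the control pool, a log2 ratio of 0.09. Prpf19, the ubiquitin ligase of the complex that joins before catalysis, was read at 4370 in the GLUT1 pool and 4581 in the control pool, a log2 ratio of -0.07. Prpf6, which bridges the tri-snRNP, had -0.01 from 3393 in the GLUT1 pool and 3424 in the control pool.

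Prpf38b was read at 1090 in the GLUT1 pool and 1009 in the control pool, a log2 ratio of 0.11. Prpf38a had 0.09, read at 529 in the GLUT1 pool and 496 in the control pool, just above the brightness filter. Prpf3, another tri-snRNP protein, had -0.08 on its measured probe set, from 860 in the GLUT1 pool and 913 in the control pool, and -0.16 on a second below the filter, while the third was at the floor on both arrays. The kinase gene Prpf4b had 0.07, Prpf39 0.02, Prpf18, a factor of the second catalytic step, -0.01, and Prpf40b -0.06. None of them reached 2 local spreads.

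Among the DEAD-box helicases 13 of 26 measured probe sets were higher and 13 lower in the GLUT1 pool, from -0.19 to 0.21. Those of ribosome assembly in the nucleolus stood at both ends. Ddx56 was read at 1953 in the GLUT1 pool and 1688 in the control pool, a log2 ratio of 0.21. Ddx21, which also acts with RNA polymerases, was read at 2075 in the GLUT1 pool and 2370 in the control pool, a log2 ratio of -0.19. Ddx54 had -0.15, Ddx10 -0.11 and Ddx51 -0.08, while Ddx47 had 0.12, Ddx52 0.05, Ddx50 0.04 and Ddx49 0.02.

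Ddx24 showed how far probe sets of a gene could part. One read 2513 in the GLUT1 pool and 2332 in the control pool, a log2 ratio of 0.11, and the other 2188 in the GLUT1 pool and 2491 in the control pool, a log2 ratio of -0.19. This gap of 0.29 was the only one of at least 0.25 among the member genes with several measured probe sets. Ddx31 and Ddx28 were below the brightness filter on their single probe sets. Ddx31, just under it, was read at 529 in the GLUT1 pool and 440 in the control pool, a log2 ratio of 0.27, and Ddx28 at 200 in the GLUT1 pool and 260 in the control pool, a log2 ratio of -0.38.

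The measured single-gene probe sets of DEAD-box helicases of splicing and export lay on both sides of 0, from -0.09 to 0.11. Ddx5, or p68, a cofactor of splicing and of transcription, gave -0.09 on the brighter probe set, from 10793 in the GLUT1 pool and 11481 in the control pool, and 0.11 on the second, from 1321 in the GLUT1 pool and 1229 in the control pool. Ddx39b, or UAP56, which acts in early spliceosome assembly and mRNA export, was read at 7956 in the GLUT1 pool and 8293 in the control pool, a log2 ratio of -0.06. Its paralogue Ddx39a had 0.0058. The spliceosomal Ddx23 had 0.08, Ddx46 -0.05, Ddx42 -0.02 and Ddx41 0.10.

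Of those with other roles, Ddx20, or gemin 3 of the complex that loads Sm rings, was read at 734 in the GLUT1 pool and 653 in the control pool, a log2 ratio of 0.17 and 0.979 local spreads. Ddx3x, a helicase of translation initiation, was read at 9154 in the GLUT1 pool and 8833 in the control pool, a log2 ratio of 0.05. Ddx6, a repressor of translation in P-bodies, had -0.16 and -0.06 on its probe sets. Ddx25, known as a helicase of the testis, was above the filter at 1818 in the GLUT1 pool and 1651 in the control pool, a log2 ratio of 0.14. Ddx1 had -0.03. Ddx19b, which as a helicase of mRNA export belongs with the group above, had -0.08. No measured probe set that lists a single Ddx gene lay 2 local spreads or more from the median of like brightness, though one that lists Ddx19a with Ddx19b, left out of the counts, did so at -2.15.

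The DEAH-box helicases ranged from -0.28 to 0.20 over 10 probe sets, all measured, with 4 above and 6 below 0. Dhx9, or RNA helicase A, which resolves double-stranded RNA and binds hnRNPs, was read at 1806 in the GLUT1 pool and 2191 in the control pool, a log2 ratio of -0.28 and -2.54 local spreads. Dhx16, which remodels the spliceosome before the first step, was at the other end at 1621 in the GLUT1 pool and 1416 in the control pool, a log2 ratio of 0.20. Dhx15, which takes spent spliceosomes apart, was read at 5541 in the GLUT1 pool and 6044 in the control pool, a log2 ratio of -0.12.

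Dhx29, a helicase of translation initiation, was read at 2866 in the GLUT1 pool and 3079 in the control pool, a log2 ratio of -0.10. Dhx38, of the second splicing step, read 1770 on both arrays. Dhx30, of the mitochondrial ribosome, had 0.08, Dhx34, of nonsense-mediated decay, -0.05, and Dhx57 -0.04. Dhx36, which unwinds G-quadruplexes, gave 0.06 on one probe set and -0.06 on the other. Within this class only Dhx9 lay beyond 2 local spreads.

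Agreement between probe sets of a gene is the one check of a ratio these arrays allow. It compares readings of the same pools on the same arrays, so it checks the probe sets and not the difference between conditions. Of the 14 member genes with several measured probe sets, the 2 brightest had the same sign in 9, or 64.3% (95% interval by Wilson's method 38.8 to 83.7, for counting error alone), beside 357 of 702 genes on the whole array, or 50.9%. The share among member genes was 57.1% under quantile normalization and 55.0% of 20 genes with no brightness filter, both nearer to that of the array. All 5 such Hnrnp genes agreed, with both probe sets lower in the GLUT1 pool, and 4 of the 5 did under quantile normalization. These are among the probe sets whose lean picked out the class, so their agreement is no separate check of it. The 2 Hnrnpa3 probe sets that were higher in the GLUT1 pool are dimmer and did not enter its pair. Outside the Hnrnp class 4 of 9 agreed. Over all 702 genes, pairs were both lower in 240, or 34.2%, and both higher in 117, so genes with several probe sets leaned lower on the array as a whole. Taken from the pairs, the SD of 1 ratio was 0.12 for the member genes and 0.13 for all genes, while the brighter probe sets had SDs of 0.10 and 0.12. For the 5 Hnrnp genes these SDs were 0.085 and 0.084. The SD from pairs was thus no smaller, but it also takes in the dimmer probe set of each gene. The local spread is wider for dimmer probe sets, so these SDs are at unlike brightness. They do not show whether probe sets of a gene differ as much as genes do.

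**Figure D4:**
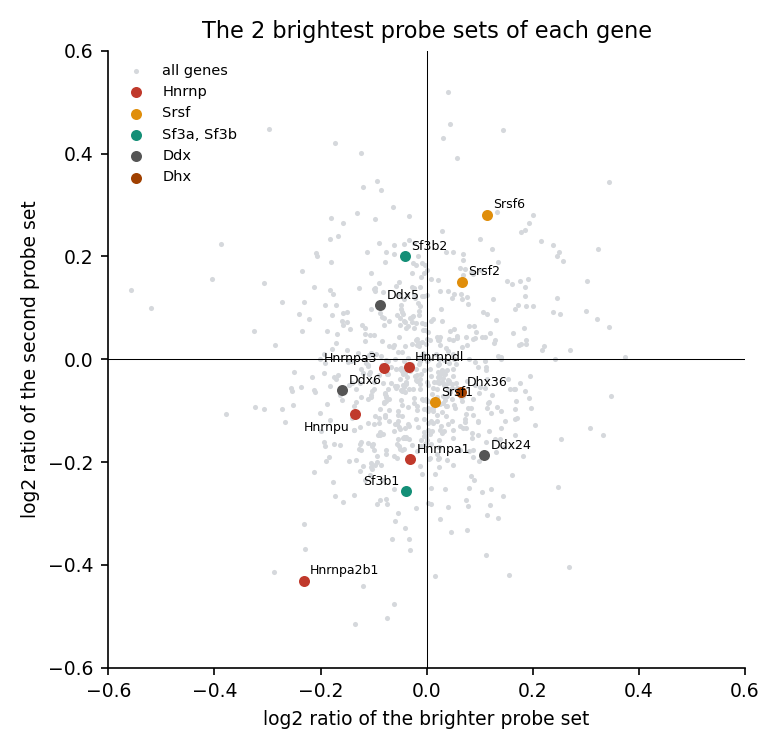
Log2 ratio, GLUT1 over control, of the second brightest probe set against that of the brightest, for genes with at least 2 measured probe sets. Labelled points are the 14 member genes and grey points all such genes, of which 1 lies outside the axes. The 5 Hnrnp genes, Ddx6 and Sf3b1 lie at the lower left and Srsf2 and Srsf6 in the upper right.

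Other genes of RNA processing were taken from a list of 108 symbols outside the naming rule. Of these 90 were on the array and 86 had a measured probe set, 100 probe sets in all. Their median log2 ratio was -0.0052, with 49 above and 51 below 0. At 0.25 or more stood 2, and at -0.25 or less 2. Together these are 4.0% of the 100, beside 7.81% of all measured probe sets. Lying at least 2 local spreads from the median of like brightness were 5, or 5.0%, beside 5.75% of all. None differed by 2-fold, beside 0.0145% of all higher and 0.0% lower. Among the measured probe sets, those of Raly, Lsm5 and Clk3 had the ratios farthest from 0. Raly, an hnRNP C relative, was read at 3061 in the GLUT1 pool and 2439 in the control pool, a log2 ratio of 0.33. Lsm5, of the ring around the U6 RNA, was read at 3539 in the GLUT1 pool and 4449 in the control pool, a log2 ratio of -0.33. Clk3, a kinase of SR proteins, was read at 672 in the GLUT1 pool and 540 in the control pool, a log2 ratio of 0.32.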

How the data were processed

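The authors deposited linear intensities in whole numbers, 1 for each of 15923 probe sets on either array, of which 57 are manufacturer's controls. Biotin-labelled cRNA was made from 5 µg of total RNA, per the labels. Probe summary, background correction and normalization by the authors: not given in the sources used here. Genes were named from the platform annotation (GRCr8 symbols through the gene ID, found for 12748 of 12783 single-gene probe sets), and no member symbol differed from the listed one. Here the GLUT1 array was scaled to a median ratio of 1 by removing a shift of -0.0013 log2 units, then floored, filtered and turned to log2 as stated above, with all probe sets of a gene kept. The steps were run on simulated data with a known shift between arrays and known changes of 1.5-fold and 2-fold. Smaller changes, class medians and agreement of probe sets were not simulated. Python 3.11.15, numpy 2.4.6, pandas 2.3.3 and scipy 1.17.1 were used.

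The members, classes and lists were chosen with earlier results of these data known. Genes named with intensities were the 3 brightest and the 4 with the largest absolute ratios of each class, every measured probe set at 0.25 or more, genes whose 2 brightest probe sets differed by 0.25, and genes with 3 or more probe sets. The other members are named to account for all of them, and their examples of intensity were chosen after the values were seen. Brightness differs between probe sets for reasons other than mRNA amount, so differences in signal between genes or classes were not read as differences in mRNA level. RefSeq promoters matched 76 of the 80 measured genes, and the first listed start was used where a gene had several, as 4 did. The number of arrays limits the precision. Alternatives were other scalings, floors, filters, thresholds and ways to join probe sets.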

Additional observations from a re-analysis of the deposited data

How the results depend on the processing

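No paired analysis was possible because GLUT1 and control cells gave 1 array each, so no array could be left out either. No member probe set reached 2-fold under any alternative tried, and none reached 1.5-fold, which 0.13% of all measured probe sets did. The 5 probe sets at an absolute log2 ratio of 0.25 became 2 with the brightest probe set per gene and 3 with the mean over a gene's measured probe sets, which hold 80 values in place of 97. They became 7 with no filter. The median log2 ratio of all members lay between -0.025 and -0.012. Alternatives for the Hnrnp class were chosen after seeing the data: its median lay between -0.086 and -0.062, with 20 of 24 probe sets below 0 under quantile normalization, 20 of 21 with the filter raised to the 75th percentile and 22 of 24 against the local median. By the brightest probe set, 14 of 16 Hnrnp genes were below 0 under quantile normalization and all measured ones under the other floors, filters and scaling. The share of gene pairs with the same sign lay between 55.0% and 66.7%. The deposited columns were already nearly equal in distribution, and the scaling shift was -0.0013. Of 265 ratios of the 53 named probe sets under other settings, 257 moved by less than their local spread. The other 8 moved with averaging over a gene and none of the ratios at 0.25 changed sign. The count of 257 was largely fixed in advance. The other floors lie below these probe sets and leave their ratios as they were. Leaving out the scaling shifts all ratios by the same small amount. Averaging can move only genes with several measured probe sets. No detection calls were used, so whether a dim probe set saw its transcript is unknown.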

Other observations

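Probe sets that list several genes entered no count above, and 9 of them name a gene of these families. All 9 were measured, with log2 ratios from -0.22 to 0.21. The 2 that list Hnrnpk with its pseudogene Hnrnpk-ps1 read 11246 in the GLUT1 pool and 11594 in the control pool, a log2 ratio of -0.04, and 7699 in the GLUT1 pool and 8768 in the control pool, a log2 ratio of -0.19 and -2.27 local spreads. With them, 24 of 26 Hnrnp probe sets were below 0. The probe set of Ddx19b and Ddx19a read 2361 in the GLUT1 pool and 2753 in the control pool, a log2 ratio of -0.22 and -2.15 local spreads, and that of Snrpc and its pseudogene 7294 in the GLUT1 pool and 6742 in the control pool, a log2 ratio of 0.11. Srsf3, listed with another locus, gave -0.06 and 0.21 on its probe sets, the second just above the filter. Snurf and Snrpn, which share a transcript, gave -0.0046 and -0.15, and Snrpg -0.0030.

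Proteins counted among the hnRNPs that carry other gene symbols lay on both sides of 0. From the list of other RNA-processing genes, and chosen after values were seen, they are Ptbp1 and Ptbp3, the Pcbp genes, Syncrip, Rbmx and Raly, with 10 measured probe sets. Beside Raly at 0.33, Ptbp1 (hnRNP I) had a log2 ratio of 0.06, from 12834 in the GLUT1 pool and 12365 in the control pool, Pcbp1 (hnRNP E) 0.02, Pcbp4 0.15 and Rbmx (hnRNP G) 0.10. Ptbp3 had -0.16, Pcbp2 -0.02 and -0.10 on its probe sets, and Syncrip (hnRNP Q) 0.02 and -0.04. Below the brightness filter, another Ptbp3 probe set had -0.48, from 301 in the GLUT1 pool and 419 in the control pool. Ptbp2, also below it, had -0.77, from 168 in the GLUT1 pool, which is under the floor, and 299 in the control pool.

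The measured genes of Sm ring assembly in that list, a grouping also made after values were seen, were mixed as well. Gemin7 stood at 0.23, Wdr77 at 0.18, its partner methyltransferase Prmt5 at 0.15 and Smn1 at 0.12, while Strap was at -0.0058, Gemin8 at -0.02, Gemin4 at -0.03, Clns1a at -0.05 and Gemin2 at -0.25. Each of these lay within 2 local spreads.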
